A study of Sus scrofa with 18 samples.

Results

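The genes described here are the translation initiation factors and aminoacyl-tRNA synthetases that the array's probe annotation names. They were taken by symbol: every gene whose symbol starts with EIF and a digit, every symbol made of 1 letter followed by ARS with or without a closing 1, 2 or S, and EPRS. This gave 58 of the 12362 genes with a named probe set, 35 initiation factors and 23 synthetases. The name initiation factors stands here for all genes with an EIF symbol, among them kinases, inhibitors and some proteins that act outside initiation. Each gene is read from 1 probe set, the one with the highest mean signal over the 18 arrays, and no filter on low signal was used, so all 58 were tested.

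Translation of most messages starts when the initiation factor eIF2 brings the first charged tRNA to the small ribosomal subunit, eIF3 holds that subunit, and eIF4F, which binds the cap, loads it onto the message. Aminoacyl-tRNA synthetases join each amino acid to its tRNA, and separate sets of these enzymes serve the cytosol and the mitochondria. Kinases that sense amino acid shortage, misfolded protein, viral RNA or low haem phosphorylate eIF2, which slows most initiation and raises the transcription factor ATF4, and a number of cytosolic synthetase genes are known ATF4 targets. Retinoic acid acts through nuclear receptors and is not part of this machinery.

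The cells were LLC-PK1, an established epithelial line from pig kidney, grown past confluence and treated with all-trans retinoic acid (ATRA). Total RNA was hybridized to Affymetrix arrays from untreated cells (0 h) and from cells treated for 0.5, 1, 4, 8 or 12 h, with 3 biological replicates at each time. The labels give no dose and no genetic change in any group. No untreated cells were collected later than 0 h, so ATRA and time after the start of treatment cannot be told apart, and every comparison with 0 h shares the same 3 control arrays.

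Values are log2 signals as deposited, and a change is the difference between the means of 3 arrays, with its standard error (SE) from the limma fit over all 18 arrays. A gene is said to rise, fall or change where the Benjamini-Hochberg adjusted p, taken over all 27558 probe sets, was under 0.05. Array medians lay between 5.59 and 5.67, and replicates of a time correlated at 0.982 to 0.995 over all probe sets. All 9 kidney epithelial markers checked, among them EPCAM, KRT8 and VIL1, lay above the array median on all 18 arrays, as did 2 of 7 fibroblast markers (COL1A1 and COL1A2), 0 of 4 endothelial markers and 2 of 5 blood cell markers (AIF1 and CD3E). In RNA from a whole culture, fewer cells that express a gene and less of its RNA per cell cannot be told apart. On the first principal component (22.1% of the variance) replicate 1 had the lowest score at every time, and its arrays of 0 h, 0.5 h, 1 h and 8 h, between -31.9 and -29.8, stood apart from the other 14, which lay at -9.37 or above. Of the 58 genes, 56 had a mean signal above the median probe set mean of 5.63, and the exceptions were AARS2 (5.46) and EIF4E1B (4.43).

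After 4 h of ATRA, 22 of the 58 genes were higher than at 0 h and 0 were lower (37.9% higher). Over all genes 7.89% were called higher and 8.53% lower at that time, and among genes with a mean above the median probe set these shares were 12% and 13.3%. On the bare order of the arrays, 25 of the 58 genes had all 3 arrays of 4 h above all 3 of 0 h and 5 had them below, against 15.4% and 16.1% of all genes; at 8 h it was 25 and 3, against 13.4% and 12.9%, and at 12 h 23 and 2, against 14.2% and 15.5%. The rises were modest in size: the largest was 1.69-fold (CARS), and the median change over the 58 was 0.17 on the log2 scale against 0.01 over all genes. They lay mostly in the cytosolic synthetases, with 9 of 12 higher, and in 12 of the 35 initiation factors, which included the eIF2 subunits EIF2S1 and EIF2S2 and the cap-binding protein EIF4E. Of the 11 mitochondrial synthetases 1 was higher.

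**Figure D1:**
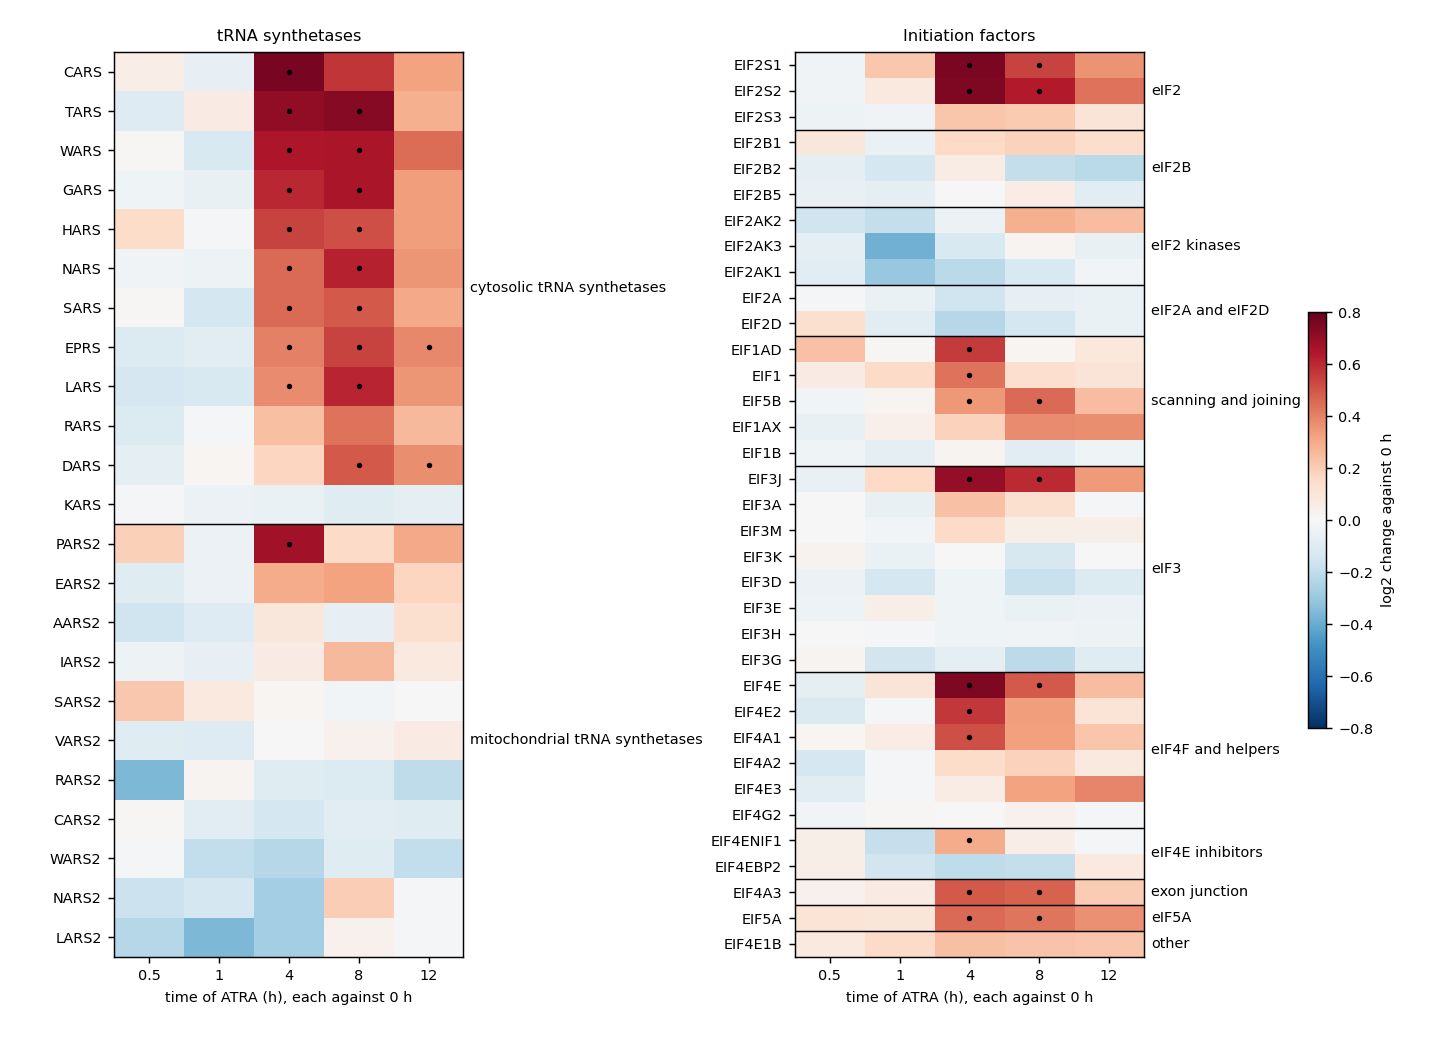
Colour gives the log2 change of each of the 58 genes at 0.5, 1, 4, 8 and 12 h of ATRA, each against the same 3 arrays of 0 h, with genes grouped by role, and a dot marks an adjusted p under 0.05 (limma). The dots sit at 4 h (22 genes), 8 h (16) and 12 h (2), all on rises, and the mitochondrial synthetases hold 1 of them.

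The cytosolic synthetases were the most evenly raised group. At 4 h 9 of 12 were higher, with a median change of 0.45, and at 8 h again 9 of 12, with a median of 0.56, where 4.33% of all genes were called higher and 3.58% lower. TARS, which charges threonine tRNA, read 9.53, 9.80 and 9.73 at 0 h, 10.12, 10.31 and 10.75 at 4 h and 10.24, 10.46 and 10.55 at 8 h, in the order of replicates 1, 2 and 3. GARS, the glycine enzyme, whose gene makes both the cytosolic and the mitochondrial protein, read 10.49, 10.31 and 10.21 at 0 h, 10.85, 10.88 and 11.09 at 4 h and 10.89, 10.98 and 11.11 at 8 h. NARS, the asparagine enzyme, read 10.89, 10.86 and 10.98 at 0 h, 11.24, 11.29 and 11.56 at 4 h and 11.48, 11.49 and 11.60 at 8 h. In each of these genes every array of 4 h and of 8 h was above every array of 0 h. TARS rose by 0.71 (SE 0.13) at 4 h, 1.64-fold, with an adjusted p of 0.00219, and by 0.73 (SE 0.13) at 8 h, with an adjusted p of 0.00449. GARS rose 1.52-fold and 1.58-fold at these times (adjusted p = 0.00257 and 0.00392), and NARS rose 1.37-fold and 1.53-fold (adjusted p = 0.00575 and 0.00199). The calls on these 3 genes held at both times when any 1 of the 6 arrays compared was left out.

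CARS, the cysteine enzyme, had the largest change of all 58 genes at 4 h. It read 7.11, 7.14 and 7.45 at 0 h, 7.65, 8.03 and 8.29 at 4 h and 7.44, 7.97 and 8.01 at 8 h. The groups at 0 h and 4 h did not overlap, while 8 h replicate 1 lay just below 0 h replicate 3. Its change was 0.76 (SE 0.17) at 4 h, adjusted p = 0.00746, and 0.57 at 8 h, which missed the threshold (adjusted p = 0.0611, 95% interval 0.21 to 0.94). WARS, the tryptophan enzyme, read 8.67, 8.53 and 8.65 at 0 h, 9.04, 9.27 and 9.48 at 4 h and 8.88, 9.40 and 9.52 at 8 h, and rose 1.57-fold at each of these times (adjusted p = 0.0101 and 0.019). The other probe set of WARS, of lower signal, rose by 0.74 at 4 h (adjusted p = 0.0279) and was 0.59 higher at 8 h without passing (adjusted p = 0.124). HARS, the histidine enzyme, rose 1.46-fold at 4 h and 1.43-fold at 8 h, and SARS, the serine enzyme, 1.37-fold and 1.40-fold. Without 4 h replicate 3 the calls on CARS, WARS, HARS and SARS at 4 h were lost. At 8 h those on WARS, HARS and SARS were lost without 8 h replicate 2 or 3, or 0 h replicate 2 or 3, and those on HARS and SARS also without 0 h replicate 1. SARS at 4 h was further lost without any single array of 0 h and without 4 h replicate 2.

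EPRS, LARS, DARS, RARS and KARS are the measured enzymes of the multisynthetase complex, a cytosolic particle that holds several synthetases together. This split was made after the values were seen and is given as a description. All 7 cytosolic synthetases outside the complex were higher at 4 h, with changes of 0.45 to 0.76, against 2 of the 5 inside it, whose changes ran from -0.05 to 0.40. At 8 h the counts were 6 of 7 and 3 of 5, and at 12 h 0 of 7 and 2 of 5. The difference between the 2 groups was not tested.

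EPRS, which charges both glutamate and proline tRNA, read 10.22, 10.10 and 10.22 at 0 h, 10.54, 10.49 and 10.72 at 4 h, 10.64, 10.72 and 10.80 at 8 h and 10.43, 10.57 and 10.69 at 12 h. Each later group lay above the 0 h arrays, and the rises were 1.32-fold, 1.46-fold and 1.30-fold (adjusted p = 0.00953, 0.00362 and 0.0442). DARS, the aspartate enzyme, read 9.11, 8.90 and 9.13 at 0 h, 9.32, 9.06 and 9.28 at 4 h, 9.51, 9.54 and 9.56 at 8 h and 9.37, 9.46 and 9.43 at 12 h. It overlapped 0 h at 4 h, where its change of 0.17 had an adjusted p of 0.248, and stood clear of it at 8 h and 12 h, at 1.40-fold and 1.30-fold (adjusted p = 0.00421 and 0.0342). LARS, the leucine enzyme, rose 1.30-fold and then 1.53-fold by 8 h (adjusted p = 0.0233 and 0.00278). RARS, the arginine enzyme, was 0.24 higher at 4 h and 0.43 higher at 8 h and passed at neither time (adjusted p = 0.298 and 0.0683). The 8 h calls on EPRS, DARS and LARS held without any 1 array. The 4 h calls on EPRS and LARS did not hold without 4 h replicate 3, nor that on LARS without 0 h replicate 1 or 2, and both 12 h calls were lost without any 1 of the 6 arrays.

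KARS, the lysine enzyme, was the exception among the cytosolic synthetases. Its gene, like GARS, supplies both compartments. It read 11.69, 11.78 and 11.65 at 0 h, 11.66, 11.71 and 11.59 at 4 h, 11.61, 11.62 and 11.60 at 8 h and 11.64, 11.68 and 11.58 at 12 h. The values moved by little at any time: the change at 4 h was -0.05, with a 95% interval of -0.22 to 0.11, and that at 8 h -0.10, with an adjusted p of 0.596. KARS had the highest mean signal of the 12, at 11.66 on a scale whose largest value over all arrays was 13.86.

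**Figure D2:**
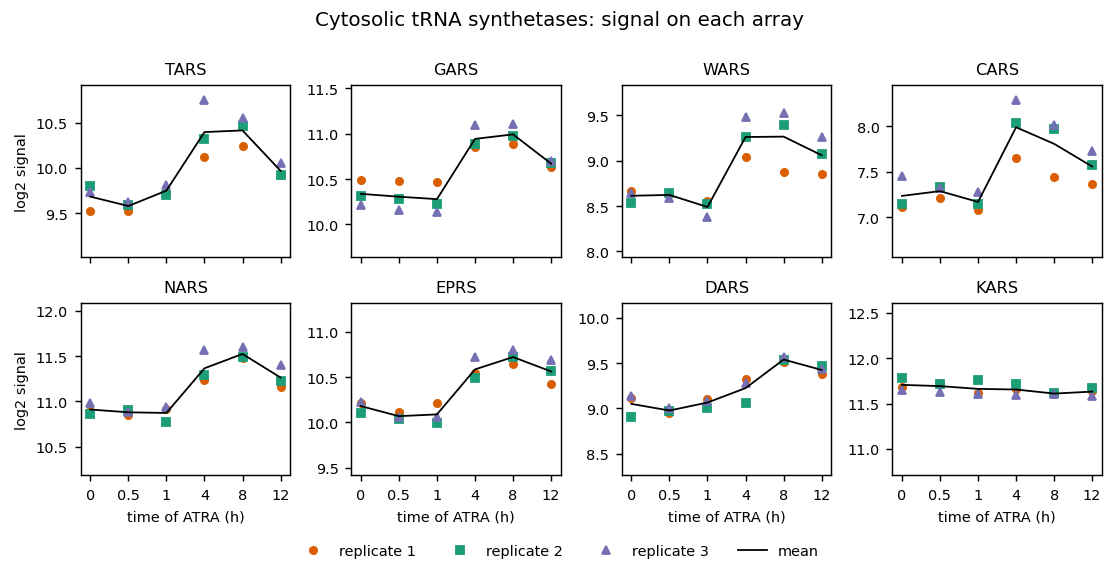
Each panel shows 1 cytosolic synthetase with the log2 signal on each of the 18 arrays by time of ATRA, a point per replicate and a line through the means; all panels span the same number of log2 units. TARS, GARS, WARS, CARS, NARS and EPRS step up between 1 h and 4 h, DARS stands clear of 0 h from 8 h on, and KARS stays between 11.58 and 11.78.

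The mitochondrial synthetases, which charge tRNA for the few proteins made inside mitochondria, did not rise as a group. Their median change was -0.00 at 4 h, 0.03 at 8 h and -0.00 at 12 h, and 1 of 11 passed at any of these times. PARS2, the proline enzyme, read 7.12, 7.00 and 7.32 at 0 h, 7.55, 7.91 and 7.99 at 4 h and 6.91, 7.45 and 7.53 at 8 h. It was above 0 h on every array of 4 h and overlapped it at 8 h, with a 1.59-fold rise at 4 h (adjusted p = 0.0134) and a change of 0.15 at 8 h (adjusted p = 0.727). That call was lost without 0 h replicate 2, or 4 h replicate 2 or 3. The other 10 changed by -0.27 to 0.29 at 4 h, and their 95% intervals ran from -0.58 to 0.52. Mean signals of the mitochondrial set lay between 5.46 and 9.45 and those of the cytosolic set between 7.51 and 11.66, and the part of signal in the difference between the sets was not tested.

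Within the mitochondrial set the directions were mixed. LARS2, the leucine enzyme, read 6.93, 6.78 and 6.88 at 0 h, 6.63, 6.38 and 6.50 at 1 h, 6.71, 6.49 and 6.57 at 4 h and 6.98, 6.89 and 6.82 at 8 h. It lay below 0 h on every array of 1 h and 4 h without passing (changes of -0.36 and -0.27, adjusted p = 0.105 and 0.0579). EARS2, the glutamate enzyme, was higher on every array of 4 h and 8 h and did not pass either (0.29 and 0.32, adjusted p = 0.0841 and 0.0923). IARS2, the isoleucine enzyme, was 0.26 higher at 8 h (adjusted p = 0.0587). WARS2, NARS2 and CARS2, which charge tryptophan, asparagine and cysteine tRNA, were lower at 4 h by -0.23, -0.27 and -0.14, and RARS2, the arginine enzyme, by -0.10, with adjusted p-values of 0.138 to 0.603. AARS2, SARS2 and VARS2, for alanine, serine and valine, differed from 0 h by 0.09, 0.02 and -0.00. In a limma F test over all times, which called 19.2% of all genes, LARS2, EARS2 and PARS2 passed, as did 11 of the 12 cytosolic enzymes, KARS being the one that did not.

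Among the initiation factors, the carrier of the initiator tRNA was raised in part. EIF2S1, the alpha subunit of eIF2 that the stress kinases phosphorylate, read 8.63, 8.75 and 8.85 at 0 h, 9.22, 9.50 and 9.75 at 4 h and 9.18, 9.23 and 9.45 at 8 h. EIF2S2, the beta subunit, read 9.29, 9.26 and 9.12 at 0 h, 9.71, 10.01 and 10.17 at 4 h and 9.69, 9.87 and 10.00 at 8 h. EIF2S3, the gamma subunit that binds GTP and the tRNA, read 9.42, 9.57 and 9.50 at 0 h, 9.57, 9.77 and 9.81 at 4 h and 9.64, 9.73 and 9.74 at 8 h. No array of 4 h or 8 h fell below the 0 h arrays in any of the 3 subunits, but the gamma subunit moved by far less. EIF2S1 and EIF2S2 each rose 1.68-fold at 4 h (changes of 0.75 and 0.74, SE 0.12 each, adjusted p = 0.000852 and 0.000585), and the calls held without any 1 array. At 8 h they were 1.46-fold and 1.55-fold higher (adjusted p = 0.0158 and 0.00463), the former lost without 0 h replicate 1 or 2 or 8 h replicate 3. The change of EIF2S3 at 4 h was 0.22, with a 95% interval of 0.04 to 0.40 and an adjusted p of 0.11. The array holds 1 more probe set for EIF2S2, with identical values on every array, so it adds no second reading.

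The factors among the 58 genes that act on eIF2 did not pass in either direction at any single time against 0 h. The measured subunits of eIF2B, the exchange factor that reloads eIF2 with GTP, were EIF2B1, EIF2B2 and EIF2B5, and their changes at 4 h were 0.16, 0.06 and -0.00, with 95% intervals from -0.25 to 0.34. The eIF2 kinases among the 58 genes were EIF2AK1, which senses haem, EIF2AK2, which senses double-stranded RNA, and EIF2AK3, which senses misfolded protein in the endoplasmic reticulum. At 4 h they differed from 0 h by -0.22, -0.04 and -0.12. EIF2AK4, the kinase that senses amino acid shortage, is not among the 58 genes. EIF2AK3 read 8.10, 7.94 and 8.03 at 0 h and 7.68, 7.44 and 7.80 at 1 h, below 0 h on every array, with a change of -0.38 that did not pass (adjusted p = 0.402). EIF2AK2 was above every 0 h array at 8 h and at 12 h (0.28 and 0.25, adjusted p = 0.207 and 0.363) and was called in the F test over all times (adjusted p = 0.0288). EIF2A and EIF2D, which can deliver tRNA without eIF2, were lower at 4 h by -0.16 and -0.23 (adjusted p = 0.328 and 0.225).

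The group of factors that scan for the start codon and join the subunits had 3 of 5 genes higher at 4 h. EIF1AD was placed in it by name. EIF1, which guards start codon choice, read 10.96, 11.13 and 11.04 at 0 h, 11.34, 11.50 and 11.59 at 4 h and 10.95, 11.25 and 11.34 at 8 h. EIF1AD, a nuclear protein related to EIF1AX, read 6.85, 6.92 and 7.16 at 0 h, 7.19, 7.67 and 7.74 at 4 h and 6.83, 7.03 and 7.12 at 8 h. EIF5B, the GTPase that joins the large subunit, read 10.81, 10.73 and 10.82 at 0 h, 11.07, 11.06 and 11.27 at 4 h and 11.33, 11.17 and 11.22 at 8 h. EIF1 and EIF1AD were clear of 0 h at 4 h and overlapped it again at 8 h, while EIF5B was clear at both times. EIF1 rose 1.35-fold and EIF1AD 1.47-fold at 4 h (adjusted p = 0.0127 and 0.0193), and their changes at 8 h were 0.14 and 0.02. EIF5B rose 1.27-fold and 1.37-fold at the same times (adjusted p = 0.00919 and 0.00392). EIF1AX, which works beside EIF1, was 0.19 higher at 4 h and 0.38 at 8 h without passing (adjusted p = 0.431 and 0.103), and its relative EIF1B, close in sequence to EIF1, differed by 0.02 and -0.08. All 3 calls at 4 h were lost without 4 h replicate 3, those on EIF1 and EIF1AD also without 0 h replicate 1, and that on EIF1AD without replicate 2 of either time, whereas the 8 h call on EIF5B held without any 1 array.

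In eIF3, the large scaffold on the small subunit, 1 of 8 measured subunits rose. EIF3J, a loosely held subunit that can leave the complex, read 9.87, 10.17 and 10.13 at 0 h, 10.43, 10.82 and 11.03 at 4 h and 10.57, 10.63 and 10.76 at 8 h. The 4 h and 8 h arrays lay above all of 0 h, and the rises were 1.63-fold (change 0.70, SE 0.14, adjusted p = 0.00278) and 1.51-fold (adjusted p = 0.0164). The call at 4 h held without any 1 array, and that at 8 h was lost without 0 h replicate 1 or 8 h replicate 3. EIF3J has 3 probe sets, and the other two were 0.68 higher (adjusted p = 0.000778) and 0.65 higher (SE 0.26, adjusted p = 0.125) at 4 h. The remaining subunits were EIF3A, EIF3D, EIF3E, EIF3G, EIF3H, EIF3K and EIF3M. Their changes at 4 h ran from -0.07 (EIF3G) to 0.23 (EIF3A, adjusted p = 0.0655), and their 95% intervals from -0.40 to 0.40. EIF3H was the steadiest, with 12.03, 12.06 and 12.09 at 0 h and 12.01, 12.04 and 12.02 at 4 h.

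**Figure D3:**
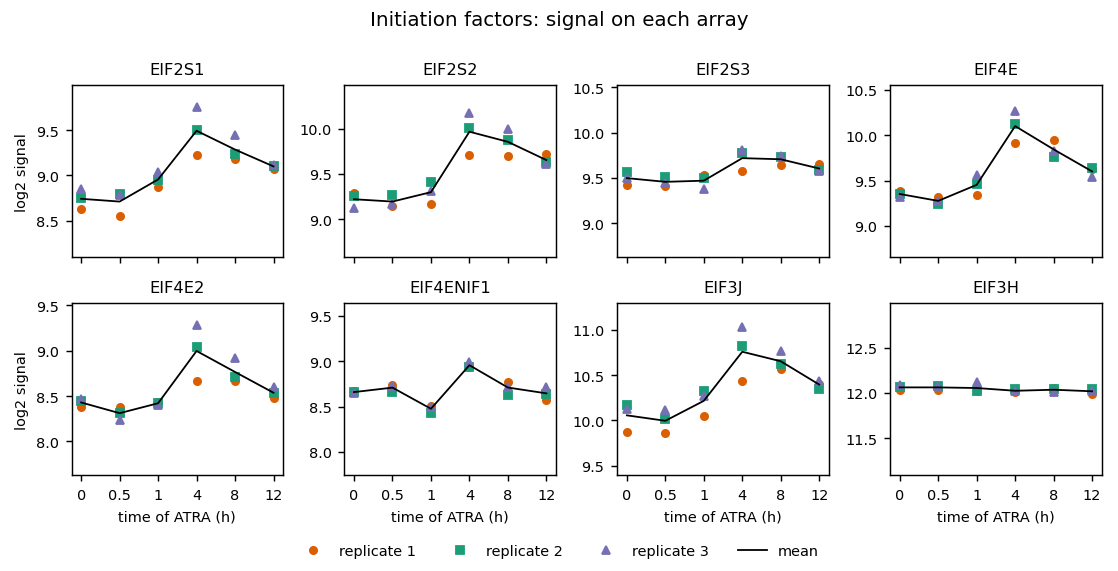
Each panel shows 1 initiation factor with the log2 signal on each of the 18 arrays by time of ATRA, a point per replicate and a line through the means; all panels span the same number of log2 units. EIF2S1, EIF2S2, EIF4E, EIF4E2 and EIF3J have their highest mean at 4 h, the means of EIF2S3 lie within 0.22 of its 0 h mean, and EIF3H stays between 11.99 and 12.12.

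The cap-binding group eIF4F and its relatives had 3 of 6 members higher at 4 h. EIF4E, which binds the cap of the message, read 9.39, 9.35 and 9.32 at 0 h, 9.91, 10.13 and 10.27 at 4 h, 9.95, 9.76 and 9.82 at 8 h and 9.62, 9.64 and 9.54 at 12 h. All 3 later groups were clear of 0 h, and those of 4 h and 12 h were clear of each other. Its change at 4 h was 0.75 (SE 0.10), 1.68-fold, with the smallest adjusted p of the 58 genes (0.000126), and at 8 h it was 1.41-fold higher (adjusted p = 0.00664). Both calls held without any 1 array. EIF4E2, a cap-binding relative that acts as a repressor of some messages, read 8.38, 8.45 and 8.47 at 0 h, 8.67, 9.04 and 9.28 at 4 h, 8.66, 8.71 and 8.92 at 8 h and 8.48, 8.53 and 8.60 at 12 h. It rose 1.48-fold at 4 h (adjusted p = 0.00561, held without any 1 array) and was 0.34 higher at 8 h without passing (adjusted p = 0.132). EIF4A1, the helicase of eIF4F, read 11.18, 11.34 and 11.51 at 0 h and 11.71, 11.88 and 11.98 at 4 h and rose 1.43-fold (adjusted p = 0.0131), a call lost without 0 h replicate 1 or 4 h replicate 3. Its near relative EIF4A2, whose probes could share sequence with it, changed by 0.15 at 4 h, EIF4E3 by 0.06, and EIF4G2, a scaffold that works without EIF4E, by 0.00 with a 95% interval of -0.14 to 0.15.

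The measured inhibitors of EIF4E were EIF4ENIF1, which carries EIF4E into the nucleus and to processing bodies, and EIF4EBP2, which keeps EIF4E from its scaffold. EIF4ENIF1 read 8.67, 8.66 and 8.65 at 0 h, 8.51, 8.43 and 8.50 at 1 h, 8.94, 8.94 and 8.99 at 4 h and 8.78, 8.63 and 8.72 at 8 h. It was below 0 h on every array of 1 h (change -0.18, adjusted p = 0.612) and above it on every array of 4 h, where it rose 1.23-fold (adjusted p = 0.0138, lost without 4 h replicate 3). EIF4EBP2 was lower at 4 h by -0.20 and did not pass (adjusted p = 0.312). EIF4A3, a helicase of the exon junction complex despite its name, read 9.10, 9.02 and 9.11 at 0 h, 9.46, 9.53 and 9.72 at 4 h and 9.26, 9.61 and 9.76 at 8 h. EIF5A, which carries hypusine and helps ribosomes past difficult stretches, read 10.73, 10.85 and 10.91 at 0 h, 11.19, 11.28 and 11.38 at 4 h and 11.01, 11.31 and 11.44 at 8 h. Both were clear of 0 h at both times. EIF4A3 rose 1.41-fold and 1.39-fold (adjusted p = 0.00867 and 0.0222) and EIF5A 1.37-fold and 1.34-fold (adjusted p = 0.014 and 0.0365). The 4 h calls on EIF4A3 and EIF5A were lost without 4 h replicate 3, that on EIF5A also without 0 h replicate 1, and their 8 h calls were lost without any of the arrays compared except 8 h replicate 1. EIF4E1B, an EIF4E relative known from oocytes, had the lowest signal of the 58 genes (mean 4.43) and changed by 0.24 at 4 h (adjusted p = 0.252).

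The changes came late. At 0.5 h and at 1 h 0 of the 58 genes passed in limma in either direction, against 0.202% of all genes higher and 0.0243% lower at 0.5 h and 0.777% and 0.105% at 1 h. At an unadjusted p under 0.05, 2 genes at 0.5 h (RARS2 and LARS2) and 3 at 1 h (LARS2, EIF2AK3 and EIF4ENIF1) were lower than at 0 h and none was higher. These are 3.45% and 5.17% of the 58 genes, close to the shares of all genes past the same limit in either direction (3.41% and 5.97%). Between 1 h and 4 h 22 genes rose and 0 fell, where 7.39% of all genes rose and 6.22% fell, and 12 were called without 4 h replicate 3. Of the 23 genes called at any time against 0 h, 15 were called at both 4 h and 8 h, 7 at 4 h and not at 8 h, and 1, DARS, at 8 h and not at 4 h. Those 7 were CARS, PARS2, EIF1, EIF1AD, EIF4A1, EIF4E2 and EIF4ENIF1.

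The time of the highest mean is given as a description, since the step from 4 h to 8 h was not called for any of the 58 genes and the families were not tested against each other. Of the 12 initiation factors called, 11 had their highest mean at 4 h, the exception being EIF5B. Of the 10 cytosolic synthetases called, 8 had it at 8 h, the exceptions being CARS and HARS. Several of these means lay within 1 SE of each other: from 4 h to 8 h WARS differed by 0.00 (SE 0.15), TARS by 0.02 (SE 0.13), SARS by 0.04 (SE 0.12), EIF4A3 by -0.02 (SE 0.11) and EIF5A by -0.03 (SE 0.11). Between 4 h and 8 h 0 of the 58 genes passed in limma (12 at an unadjusted p under 0.05, 6 higher and 6 lower, which is 20.7% against 19% of all genes, and an adjusted p of at least 0.0603), where 2.32% of all genes rose and 1.8% fell. Leaving out 4 h replicate 1 gave 7 calls for that step.

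By 12 h most of the rise was smaller. The cytosolic synthetases had a median change of 0.33 at 12 h and 2 of them passed, DARS and EPRS, which were also the only calls among the 58 genes, where 1.52% of all genes were higher and 1.75% lower. Both calls were lost in each of the 6 fits without 1 array of 0 h or 12 h. A fit with a replicate block called more of the 58 genes at 12 h, as given in the last section. Every one of the 12 cytosolic synthetases except KARS still had a mean above that of 0 h. The initiation factors had a median change of 0.08, and 0 of 35 passed in limma (for the 58 genes together 18 had an unadjusted p under 0.05, 16 of them higher, which is 31% against 16.5% of all genes). The comparison of 12 h with 4 h, added after the data were seen, gave 3 genes lower and 0 higher, where 5.12% of all genes were lower and 4.65% higher. In this fit the count of 3 is near the share of all genes lower, so it is not read as a result about the 58 genes as a set. The fit with a replicate block and the fit without replicate 1 gave larger counts for this step, as given in the last section. EIF4E was lower by 0.50 (SE 0.10, 0.707-fold, adjusted p = 0.00499), EIF4E2 by 0.46 (SE 0.12, adjusted p = 0.0299) and EIF4ENIF1 by 0.31 (SE 0.07, adjusted p = 0.0167). The count was 12 without 4 h replicate 1, and 1 without 4 h replicate 3 or 12 h replicate 1 or 2. The call on EIF4E held without any 1 array, that on EIF4E2 held only without 4 h replicate 1, and that on EIF4ENIF1 was lost without 4 h replicate 3 or 12 h replicate 1 or 2. Another probe set of EIF3J was also lower at 12 h than at 4 h (change -0.42, adjusted p = 0.029), while the one used here had a change of -0.36 (adjusted p = 0.13). Between 8 h and 12 h 0 probe sets on the array passed, and 9 of the 58 genes had an unadjusted p under 0.05, 8 of them lower, which is 15.5% against 5.95% of all genes.

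The signals of the genes called higher ranked the arrays of a time in a similar order in most of these genes. This order is of signals at that time, not of changes, and so includes any difference between replicates at 0 h. On the 4 h arrays replicate 3 was the highest of the 3 in all 22 genes called and replicate 1 the lowest in 19. Over all 975 genes called higher at 4 h these shares were 68.2% and 70.7%. On the 8 h arrays replicate 3 was the highest in 14 of 16 and replicate 1 the lowest in 14, where the shares over all 535 genes called higher at 8 h were 48.6% and 39.3%. Without 4 h replicate 3 the count at 4 h was 8 in place of 22, with EIF2S1, EIF2S2, EIF3J, EIF4E, EIF4E2, GARS, NARS and TARS left, the cytosolic synthetases gave 3 calls in place of 9, and the median cytosolic change was 0.35 in place of 0.45. All 22 genes stayed higher in that fit, by 0.28 to 0.67. At 8 h the count was 9 without 8 h replicate 3 and 10 without 0 h replicate 1 or 2, in place of 16. With the 6 arrays of replicate 1 left out, a choice made after the data were seen, all 22 calls at 4 h and all 16 at 8 h held, as did 21 of the 22 for 4 h against 1 h and 2 of the 3 for 12 h against 4 h. Neither call at 12 h did (adjusted p = 0.0749 for DARS and 0.0511 for EPRS), and WARS was called there in their place (adjusted p = 0.0331).

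Neighbouring machinery was read from lists of related genes, which were drawn up with earlier results of these arrays known. Of 13 listed partners of the synthetases 11 were measured. At 4 h 3 of them were higher and 1 lower, where 7.89% of all genes were higher and 8.53% lower. EEF1E1, a scaffold protein of the multisynthetase complex, read 7.16, 6.91 and 7.13 at 0 h and 7.78, 8.53 and 8.50 at 4 h and rose 2.30-fold (adjusted p = 0.000173), a larger rise than that of any of the 58 genes. FARSA and FARSB, the subunits of the cytosolic phenylalanine enzyme, whose symbols fall outside the rule, rose 1.60-fold and 1.54-fold at 4 h (adjusted p = 0.00982 and 0.017) and were higher at 8 h too (adjusted p = 0.0445 and 0.0163). GATB, a subunit of the mitochondrial enzyme that turns glutamate into glutamine on its tRNA, read 8.01, 7.98 and 7.83 at 0 h and 7.43, 6.82 and 6.66 at 4 h and fell to 0.511-fold (adjusted p = 0.00106). The 4 h calls on EEF1E1 and GATB held without any 1 array, that on FARSA was lost without 4 h replicate 3 and that on FARSB without 0 h replicate 1 or 4 h replicate 2 or 3. At 8 h the calls on FARSA and FARSB were lost without 0 h replicate 1 or 2, or 8 h replicate 2 or 3, and that on FARSA also without 0 h replicate 3.

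Of 14 listed elongation and termination factors 11 were measured. At 4 h and at 8 h 3 of them rose, where 7.89% and 4.33% of all genes did, with 0 lower. These were ABCE1, which recycles ribosomes (1.63-fold at 4 h, adjusted p = 0.000126), ETF1, which reads stop codons (1.55-fold, adjusted p = 0.000869), and its partner GSPT1 (1.35-fold, adjusted p = 0.00238). At 4 h all 3 calls held without any 1 array, and at 8 h those on ETF1 and GSPT1 were lost without 0 h replicate 3 or 8 h replicate 3, and that on GSPT1 also without 0 h replicate 1 or 2. The measured elongation factors on the list did not pass, and EEF2, EEF1A2 and EEFSEC were not measured. Of 26 listed regulators of initiation 21 were measured, with 2 higher and 2 lower at 4 h, near the shares over all genes (7.89% and 8.53%). PPP1R15B, which brings a phosphatase to eIF2, rose by 0.47 (adjusted p = 0.00393) and the helicase DDX3X by 0.34 (adjusted p = 0.0461). PDCD4, which blocks the helicase EIF4A, fell by 0.74 (adjusted p = 0.0031) and PAIP2, which inhibits poly(A)-binding protein, fell by 0.45 (adjusted p = 0.0276). The calls on PPP1R15B and PDCD4 held without any 1 array, that on DDX3X held only without 4 h replicate 1 and that on PAIP2 only without 0 h replicate 1.

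Of 30 listed genes of the ATF4 and amino acid supply programme 22 were measured. At 4 h 9 were higher and 1 lower, where 7.89% of all genes were higher and 8.53% lower, and the median change was 0.32. The other 12 passed in neither direction, and 16 of the 22 had a change above 0. SLC7A1, a transporter of cationic amino acids, was 2.98-fold higher (adjusted p = 7.43e-05), STC2, a secreted stress protein, 2.79-fold (adjusted p = 1.69e-06), and CEBPG, a partner of ATF4, 2.02-fold (adjusted p = 0.00011), and the gene lower was the lipoprotein receptor VLDLR (0.477-fold, adjusted p = 0.000102). CHAC1, which breaks down glutathione, was 2.23-fold higher (adjusted p = 0.00179), and ASNS, which makes asparagine, 2.20-fold (adjusted p = 0.000659). These 4 h calls held without any 1 array. ATF4 read 9.30, 9.64 and 9.62 at 0 h, 9.91, 10.66 and 10.57 at 4 h and 8.97, 9.72 and 9.84 at 8 h, a rise of 0.86 at 4 h (adjusted p = 0.0165) that overlapped 0 h again at 8 h. At 8 h the list had 3 higher and 2 lower, where 4.33% of all genes were higher and 3.58% lower. ASNS was higher by 1.10 (adjusted p = 0.00226) and STC2 by 0.54 (adjusted p = 0.00658). VLDLR (0.669-fold, adjusted p = 0.0165) and the stress-induced transcription factor DDIT3 (0.645-fold, adjusted p = 0.0496) were lower. The 8 h calls on ASNS and STC2 held without any 1 array, that on VLDLR was lost without 0 h replicate 1 or 3 or 8 h replicate 3, and that on DDIT3 without 0 h replicate 1 or 2 or 8 h replicate 2 or 3. At 12 h 2 were higher, where 1.52% of all genes were. The first was ASNS (1.64-fold, adjusted p = 0.0488), whose call was lost in all 6 fits without 1 array. The other was GPT2, an alanine transaminase (adjusted p = 0.0328), whose call was lost without 0 h replicate 1 or 2 or 12 h replicate 2 or 3. Of 7 listed MYC family genes 6 were measured. MYC, a transcription factor known for raising genes of protein synthesis, read 8.38, 8.79 and 9.16 at 0 h, 10.17, 10.36 and 10.12 at 0.5 h, 10.44, 11.28 and 11.49 at 1 h and 9.33, 10.57 and 10.46 at 4 h. It passed at 1 h (4.90-fold, adjusted p = 0.00126), before any of the 58 genes did, and at 4 h (2.54-fold, adjusted p = 0.0119), when its repressive relative MXI1 was lower (0.533-fold, adjusted p = 0.00079) and its partner MAX higher (1.28-fold, adjusted p = 0.0126). The call on MYC at 1 h held without any 1 array, while the 4 h calls on ATF4 and MYC were lost without 0 h replicate 1 or 4 h replicate 2 or 3 and that on MAX without 0 h replicate 3 or 4 h replicate 2 or 3. The part of ATF4 or MYC in the changes of the 58 genes was not tested.

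**Figure D4:**
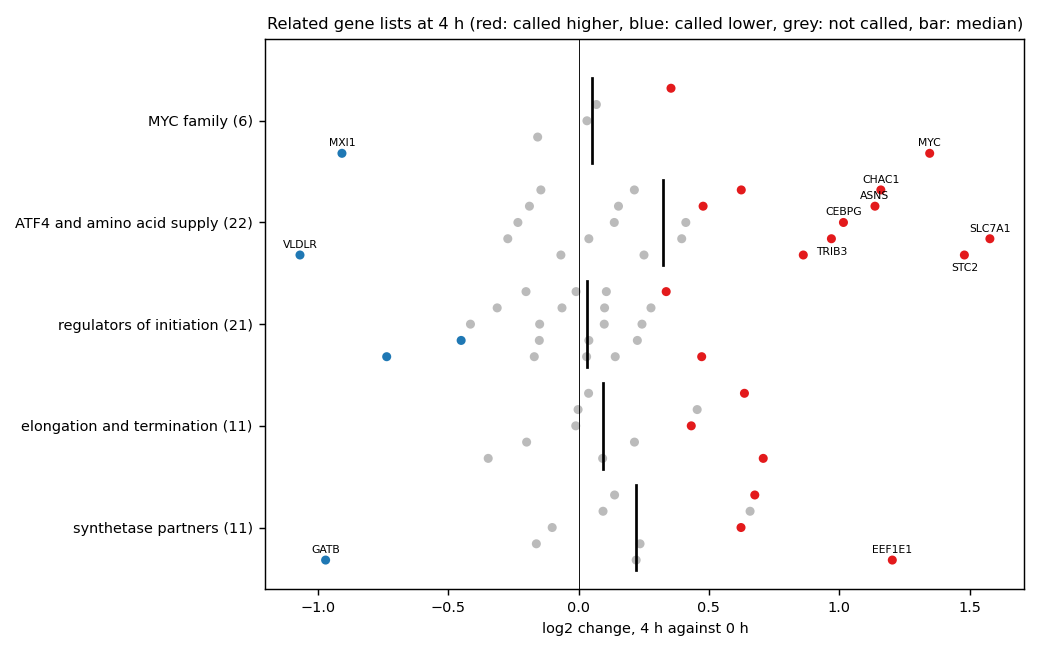
Each point is 1 measured gene of a list of related genes by its log2 change at 4 h against 0 h, with the number measured in brackets, red for genes called higher, blue for genes called lower, grey for the rest, and a bar at each median. The list of ATF4 and amino acid supply has the median farthest from 0 (0.32), with 9 of 22 genes called higher and 1 lower, against 7.89% and 8.53% of all genes. The lists were drawn up with earlier results of these arrays known, so the order of their medians is a description.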

How the data were processed

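Per the labels, biotin-labelled cRNA from total RNA was hybridized to Affymetrix arrays. The deposited log2 values were made by the authors with Transcriptome Analysis Console 2.0.0.9, per the submitters' processing notes; their summarization, normalization and annotation build are not given in the sources used here. The values were used as deposited. Of 27558 probe sets, 13323 carried 1 gene symbol in GEO's platform annotation (12362 genes) and 357 several, which were not used. All 58 Entrez identifiers matched the RefSeq gene table supplied. Sequences and coordinates were not used here.

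limma 3.58.1 (R 4.3.3) fitted 1 mean per time over 18 arrays (12 residual degrees of freedom) with eBayes, and p-values were adjusted by Benjamini-Hochberg over all probe sets. The 95% intervals are not adjusted for the number of genes. The median SE of a change was 0.15, and the number of arrays limits precision. The members and lists were chosen with earlier results of these data known. Among the 58 genes, the rule named the 14 largest called rises at 4 h, the 6 largest at other times against 0 h, the 3 largest in each direction at later steps, all genes of roles with at most 5 measured genes, and the extremes of larger roles; in the related lists it named up to 4 called genes per time. The other members, ATF4, CEBPG and the multisynthetase grouping were named after their values were seen.

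Deviations from the time means correlated at 0.108 to 0.507 between arrays of replicate 1, -0.047 to 0.378 for replicate 2 and 0.133 to 0.337 for replicate 3. All 15 pairs of arrays of replicate 1, 9 of 15 of replicate 2 and all 15 of replicate 3 lay over 0.1. Same-numbered arrays thus shared part of their deviation. The labels do not say what a replicate number shares between times. The main fit has no replicate term, and a replicate block was tried as an alternative. The fit was tested on simulated data for 4 h against 0 h over 27558 probe sets: it called 19 of 67 shifts of 0.5, 58 of 67 shifts of 1, 63 of 66 shifts of 2 and 13 of 27358 unchanged probe sets. Far fewer probe sets were shifted there than were called in the real data at 4 h (3568), so these shares do not carry over to the 58 genes. Alternatives tried were a replicate block, only the 6 arrays compared, quantile normalization, median centring, a filter on low signal, trended robust eBayes, a 1.5-fold minimum, an adjusted p under 0.01, and each array left out.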

Additional observations from a re-analysis of the deposited data

How the results depend on the processing

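No gene that the text calls changed sign under any alternative tried. The number of the 58 genes called was 22 at 4 h, 16 at 8 h, 2 at 12 h, 22 for 4 h against 1 h, 0 for 8 h against 4 h, 3 for 12 h against 4 h and 25 at any time. With only the 6 arrays of a comparison fitted it was 5 at 4 h, 0 at 8 h and 12 h, 1 for 4 h against 1 h and 0 for 12 h against 4 h, with 2 and 0 cytosolic synthetases at 4 h and 8 h and 0 mitochondrial ones at 4 h; this fit has fewer samples. A 1.5-fold minimum left 9, 7 and 0 at 4, 8 and 12 h, 8 for 4 h against 1 h and 0 for 12 h against 4 h (cytosolic 4 and 5). An adjusted p under 0.01 left 13, 9 and 0, then 14 for 4 h against 1 h, 1 for 12 h against 4 h and 16 at any time (mitochondrial 0 at 4 h).

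The other alternatives moved the counts as follows; the cause was not tested. The counts in this section take rises and falls together. With a replicate block, 1 gene was called at 1 h, 23 at 8 h, 9 at 12 h, 8 for 8 h against 4 h and 15 for 12 h against 4 h (mitochondrial 2 at 4 h and 1 at 8 h). In this fit the call at 1 h was LARS2, which was lower. The mitochondrial calls at 4 h were PARS2, higher, and LARS2, lower. Over all probe sets this fit called 5277 at 4 h in place of 3568 and 1943 at 12 h in place of 728. Among all genes it called 7.81% higher at 8 h and 4.47% at 12 h, where the main fit called 4.33% and 1.52%. For 8 h against 4 h and 12 h against 4 h these shares were 6.03% and 8.87%, in place of 2.32% and 4.65%. Quantile normalization gave 1 at 12 h, 1 for 8 h against 4 h and 6 for 12 h against 4 h (mitochondrial 2 at 4 h), and median centring 1 for 8 h against 4 h (mitochondrial 1 at 8 h). Testing only probe sets above the median mean gave 1 at 1 h, 7 at 12 h, 5 for 8 h against 4 h and 9 for 12 h against 4 h (mitochondrial 3 at 4 h and 2 at 8 h). Trended robust eBayes gave 5 at 12 h, 3 for 8 h against 4 h and 7 for 12 h against 4 h (mitochondrial 1 at 8 h). Without replicate 1 at every time, a choice made after the data were seen, 1 was called at 12 h, 2 for 8 h against 4 h and 11 for 12 h against 4 h. Among all genes that fit called 1.82%, 4.99% and 9.55% higher in these comparisons. For the other alternatives the shares over all genes were not computed.

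With 1 array left out the counts ran from 8 to 25 at 4 h, 9 to 19 at 8 h, 0 to 0 at 12 h, 12 to 23 for 4 h against 1 h, 0 to 7 for 8 h against 4 h, 1 to 12 for 12 h against 4 h and 20 to 30 at any time; cytosolic 3 to 9 at 4 h and 6 to 11 at 8 h, mitochondrial 0 to 2 at 4 h. With 3 arrays a group, several calls on changes under 0.5 on the log2 scale depended on a single array. At 4 h those on EIF4A3, EIF5A and EIF4ENIF1 were lost without 4 h replicate 3, while that on NARS held without any 1 array.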
